A study of Neurospora crassa with 12 samples.

Results

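Neurospora crassa mycelium labelled Δpac-3 was compared with mycelium labelled Δmus-52, both grown in low phosphate. Of the 12 mRNA-sequencing libraries of the series, 6 entered the comparison, 3 labelled Δpac-3 and 3 labelled Δmus-52, and every gene counted in them was considered. Conidia from cultures aged 10 days (Δpac-3) or 5 days (Δmus-52) were germinated for 5 h at 30 °C directly in medium at pH 5.4 with 44 mM sucrose, 50 mM sodium citrate and 10 µM Pi, and the resulting mycelium was collected. The high-Pi counterpart held 10 mM Pi and is used here only to show where the low-Pi pattern differs. The Δpac-3 strain carries the bar resistance gene in place of the pac-3 open reading frame and was made in a mus-52 knockout, so by their description both strains lack mus-52, a gene of non-homologous end joining that is removed to make gene replacement efficient. Each strain is 1 mutant line with 3 biological replicates. The age of the conidia differed with the strain, and the older Δpac-3 cultures also spent longer at room temperature in ambient light. The effects of age, of light and temperature, and of strain therefore cannot be told apart.

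The labels were checked against the targeted genes. The level of pac-3 (NCU00090), in CPM (counts per 1000000 counts of the library after scaling), was 155, 135 and 160 under the label Δpac-3, against 510, 516 and 525 under the label Δmus-52 (log2 fold change -1.79 ± 0.10 SE, n = 3 each). All 3 libraries with the deletion label were lower, yet reads of the gene were not absent, and counts per gene do not show which part of the gene the remaining reads came from. The mus-52 gene (NCU00077) had 9, 2 and 0 counts in libraries labelled Δpac-3, against 970, 567 and 487 counts in libraries labelled Δmus-52, which goes against the second label. The groups are therefore named by their labels throughout. Total counts were 82211503, 20240314 and 26269512 in the libraries labelled Δpac-3 and 45358621, 29987696 and 20851337 in those labelled Δmus-52. Actin (act) averaged 1204 ± 24.2 and 1208 ± 42.0 CPM (SD, n = 3 each) under those labels and did not pass the test. In bulk mycelium, fewer cells of a type and less RNA per cell cannot be told apart.

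PAC-3 is the Neurospora member of the PacC/Rim101 family of zinc finger transcription factors. Members of this family are processed proteolytically when the Pal pathway senses ambient pH, and they activate genes used at alkaline pH and repress genes used at acidic pH. In filamentous fungi they also act on secreted enzymes, ion transport and cell wall formation. Phosphate starvation in Neurospora is handled by the PHO pathway, in which the transcription factor NUC-1 activates phosphatases and phosphate permeases. Amino acid synthesis has a separate regulator, cross-pathway control, in which the kinase CPC-3 and the bZIP activator CPC-1 raise many biosynthetic genes when an amino acid is short.

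Of 8269 genes tested, 4231 (51.2%) changed, meaning that edgeR's quasi-likelihood test gave a Benjamini-Hochberg adjusted p below 0.05. Of all genes tested, 2093 (25.3%) rose and 2138 (25.9%) fell in the libraries labelled Δpac-3. A gene that changed by at least 1.5 on the log2 scale is called modulated here, and 794 genes (9.6%) were, 437 (5.28%) upward and 357 (4.32%) downward. The values of the libraries under the 2 labels did not overlap for 4938 genes (59.7%), 789 of the modulated genes among them. The direction of the small changes depends on scaling. With total counts in place of trimmed means (TMM), the median of all genes moved by 0.18 on the log2 scale and 68.7% of the changed genes rose, against 49.5% as reported. Under total counts 3086 genes rose and 1409 fell, which is the background for the total-count tallies of the lists below. Every "rose" and "fell" below is relative to the bulk of genes.

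The balance of rises and falls differed with the level of the gene. Among the 517 genes averaging under 1 CPM, 112 (21.7%) were modulated upward and 31 (6.0%) downward. Among 1649 genes at 1 to 10 CPM, 193 (11.7%) were modulated upward and 113 (6.85%) downward. Weakly expressed genes had to pass a filter on low counts, often through the strain in which they were higher, so the share of modulated genes in the lowest classes is only a description. From 10 CPM up, falls outnumbered rises. In the class of 100 to 1000 CPM, 21 of 1485 genes were modulated upward and 61 downward, and among the 164 genes at 1000 CPM or more the counts were 1 and 5. Of the transcripts with the highest levels, the elongation factor gene tef-1 had 26326, 26986 and 25850 CPM in libraries labelled Δpac-3, against 34143, 37341 and 34809 CPM in those labelled Δmus-52 (log2 fold change -0.43), a fall that did not pass without replicate 2 labelled Δmus-52 or replicate 3 labelled Δpac-3. Genes with a symbol in the RefSeq table of the NC12 assembly, 1080 of those tested, made up 3.48% of the lowest class and 42.1% of the highest. Of these 1080 genes, 237 rose (21.9%) and 325 fell (30.1%), and these shares are the background for the gene lists below, which were drawn from symbols.

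**Figure D1:**
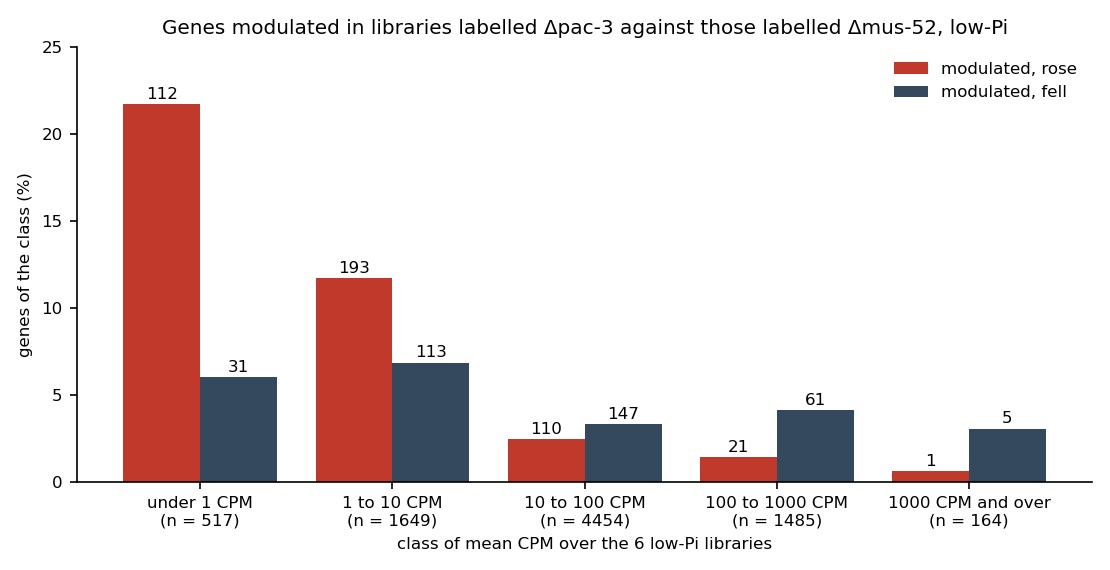
Share of genes modulated upward (red) and downward (blue) in libraries labelled Δpac-3 against those labelled Δmus-52, in percent of the genes of each class of mean CPM over the 6 low-Pi libraries, with the number of genes above each bar. Rises outnumber falls below 10 CPM (112 against 31 and 193 against 113), and falls outnumber rises above it.

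Genes named in the study's text were left out of this ranking. They included the phosphate transporter gene NCU09564 (log2 fold change -9.83) and the ATPase gene ena-1 (-6.76). Among the other genes that reached a mean of 10 CPM in 1 strain, many of the largest falls were of genes close to undetected in libraries labelled Δpac-3. NCU01064 had 17, 2 and 9 counts under the label Δpac-3, against 4485, 2339 and 1744 counts under the label Δmus-52 (log2 fold change -8.76 ± 0.20 SE). NCU07894, an oligopeptide transporter, had 0.548, 0.496 and 0.797 CPM, against 70.0, 57.8 and 83.0 CPM (-6.86 ± 0.20). Both genes overlap another annotated gene, and since the strand setting of the counting is not given in the sources used here, their reads cannot be assigned with certainty. The same holds for every gene marked "overlapping" below. NCU02880, which overlaps no other gene, had 2.83, 4.47 and 3.95 CPM in libraries labelled Δpac-3, against 218, 218 and 279 CPM in those labelled Δmus-52 (-6.05). The α-mannosidase family gene gh47-6 averaged 0.567 CPM against 27.1 CPM. The menadione-induced gene mig-3 had 8.13, 13.4 and 15.6 CPM, against 524, 350 and 466 CPM, and NCU07434, a short-chain dehydrogenase, 3.18, 2.57 and 2.57 CPM against 138, 79.6 and 70.3 CPM. None of these genes had a library labelled Δpac-3 within the range of the libraries labelled Δmus-52, which the rule that picked them required. NCU08183, at 1377 to 2033 CPM the most abundant of the genes with the largest falls, averaged 73.3 CPM in libraries labelled Δpac-3, and its neighbour NCU08184 (overlapping) fell beside it by 4.32 on the log2 scale.

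Several genes annotated to peptide breakdown or uptake rose, NCU09773, NCU08739 and NCU04991 among the 10 largest rises by the rule used, and NCU08738 and NCU08418 chosen after their values were seen. NCU09773, annotated as an oligopeptide transporter, had 3207, 681 and 803 counts in the libraries labelled Δpac-3 and 0 counts in all 3 labelled Δmus-52. With the group floor set at 3 counts, and counts pooled per label and divided by total counts, this was at least 1169-fold higher. TMM scaling was not applied to this value, so the bound holds only for total counts. NCU08739, an aspartic protease of the endothiapepsin kind, had 451, 272 and 245 CPM, against 7.21, 7.49 and 9.0 CPM (log2 fold change 5.36 ± 0.25 SE, edgeR adjusted p = 1.81e-07). Next to it, NCU08738, a peptide transporter of the major facilitator superfamily, had 170, 160 and 157 CPM, against 30.6, 43.5 and 40.8 CPM (2.09 ± 0.13). A further transporter of peptides, NCU04991, averaged 18.6 CPM against 0.511 CPM, and NCU08418, a tripeptidyl-peptidase, averaged 46.7 CPM against 8.06 CPM. These annotations cover proteases and transporters that take up peptides. The oligopeptide transporter NCU07894, described above, moved the opposite way, so annotated peptide transporters fell as well as rose.

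Among the other large rises were NCU05858 and eas. NCU05858, a fatty acid oxygenase, had 72.6, 30.6 and 29.7 CPM in libraries labelled Δpac-3, against 0.46, 0.538 and 0.617 CPM in those labelled Δmus-52 (log2 fold change 6.41 ± 0.45 SE), and the adjacent NCU05859 rose with it by 4.75. The hydrophobin gene eas, whose product coats conidia, had 81.8, 391 and 406 CPM, against 6.56, 7.24 and 3.70 CPM (5.61 ± 0.58). Replicate 1 of the libraries labelled Δpac-3 was low for eas and high for NCU05858, NCU05859 and NCU08739 relative to the other two, and it is also the deepest library. The libraries of the 2 labels did not overlap for any of these genes, but the rule that picked them required this.

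**Figure D2:**
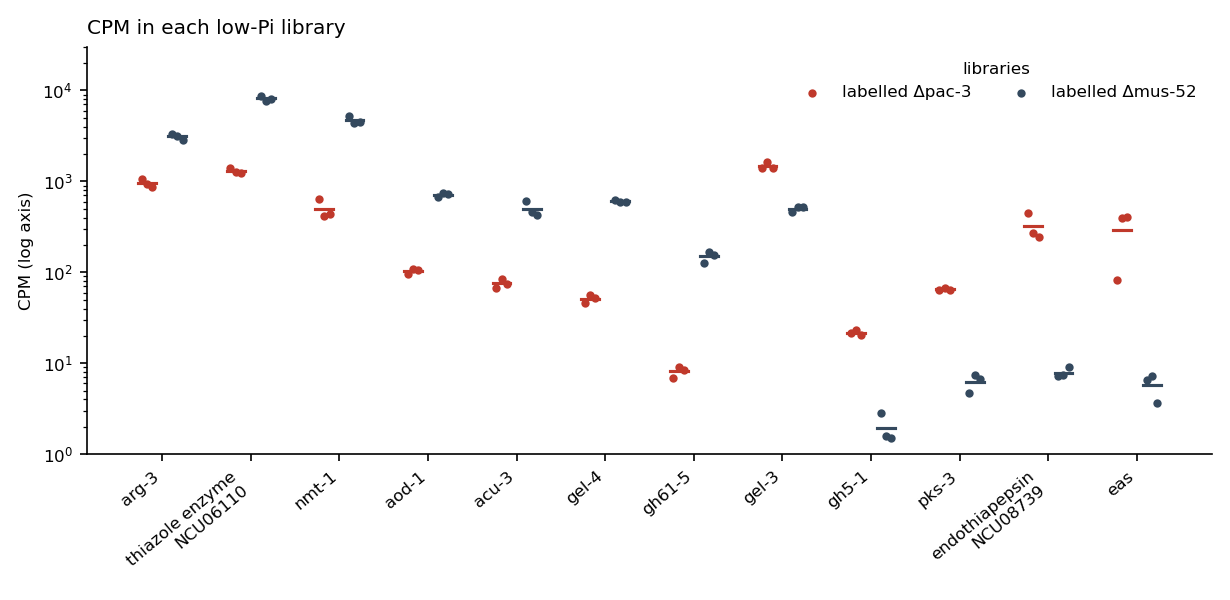
CPM on a log axis in each low-Pi library for 12 genes, red for libraries labelled Δpac-3 and blue for those labelled Δmus-52, with a bar at each mean. The 3 libraries under one label lie apart from the 3 under the other for every gene drawn, which the rule that picked most of them required. The gene eas has the widest spread, 81.8 to 406 CPM under the label Δpac-3.

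Amino acid biosynthesis had the most falls by number of any list described, while the small glycolysis list had a larger share of falls (75.0%, 6 of 8). Of 61 genes tested whose symbols mark mutants with an amino acid requirement, none rose and 43 (70.5%) fell, beside the 25.9% of all genes and 30.1% of symbol-bearing genes that fell. The list's median log2 fold change was -0.58, beside 0.02 over all genes. The libraries under the 2 labels did not overlap for 48 of its 61 members, beside 59.7% of all genes. Together the genes took 2.63, 2.51 and 2.39% of all counts in libraries labelled Δpac-3, against 4.0, 3.76 and 3.59% in those labelled Δmus-52. With each of the 6 libraries left out in turn, 40 to 49 members fell. Under scaling to total counts 38 fell and 5 rose, with a median of -0.41. The list holds leu-5, leu-6 and trp-5, which encode aminoacyl-tRNA synthetases rather than biosynthetic enzymes.

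Most falls in this list were moderate and ran across pathways. Of its 61 genes, 6 were modulated, all downward, beside 4.32% of all genes tested. In arginine synthesis, arg-3, the large subunit of carbamoyl-phosphate synthase, had 1057, 933 and 872 CPM in libraries labelled Δpac-3, against 3301, 3188 and 2858 CPM in those labelled Δmus-52 (log2 fold change -1.71 ± 0.12 SE, edgeR adjusted p = 1.74e-06, overlapping). The arginine genes arg-10 (argininosuccinate lyase) and arg-5 (acetylornithine aminotransferase) fell by 1.44 and 1.40. In the branched-chain pathway, ilv-5 had 6.51, 13.6 and 14.5 CPM, against 49.2, 33.6 and 37 CPM (-1.83 ± 0.27), the largest fall of the list. The histidine gene his-6 averaged 243 CPM against 758 CPM and the proline gene pro-3 averaged 184 CPM against 582 CPM (both overlapping). One of the isozymes that open the aromatic pathway, aro-7 (DAHP synthase), fell by 1.63, the lysine gene lys-5 by 1.61 and the threonine gene thr-4 by 1.48. The 18 members that did not pass the test included several cysteine (cys) genes.

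**Figure D3:**
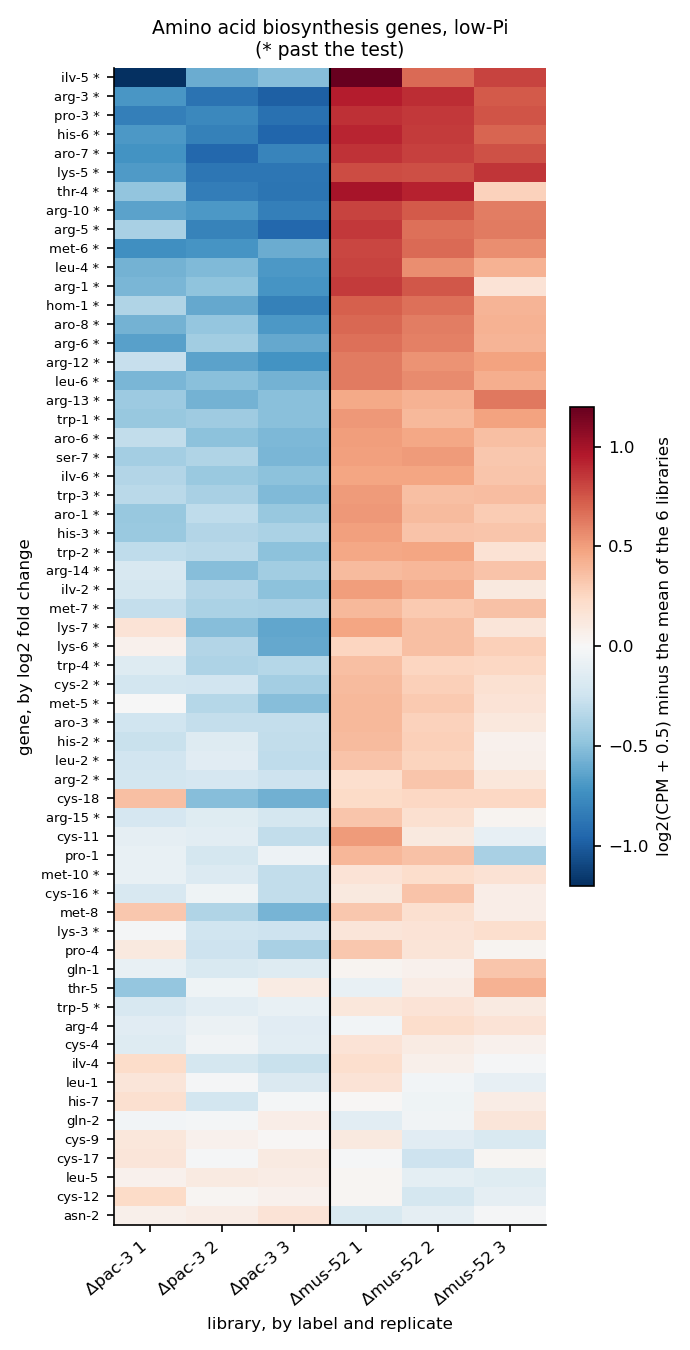
Heat map of the 61 amino acid biosynthesis genes tested (rows, ordered by log2 fold change) in the 6 low-Pi libraries (columns, labelled Δpac-3 left of the line and Δmus-52 right of it), coloured by log2(CPM + 0.5) minus the gene's mean over the libraries, with an asterisk on the genes past the test. The 43 asterisks all stand on falls, and the upper rows are blue in all 3 libraries labelled Δpac-3.

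The regulators of cross-pathway control differed from each other. The activator gene cpc-1 had 3525, 3945 and 4194 CPM in libraries labelled Δpac-3, against 3733, 4279 and 4509 CPM in those labelled Δmus-52, and its log2 fold change of -0.10 ± 0.12 (SE) did not pass the test (edgeR adjusted p = 0.505). The sensor kinase gene cpc-3 had 81.5, 82.7 and 91.0 CPM, against 204, 199 and 195 CPM, a log2 fold change of -1.23 in which every library labelled Δpac-3 lay below every library labelled Δmus-52. Transcript level does not report the translational control by which cpc-1 is mainly regulated.

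Some genes annotated to amino acid metabolism outside the symbol list also fell. They were picked after their values were seen, and no list of their classes was counted. Among them were NCU09116, an aromatic aminotransferase (overlapping, 218 CPM against 982 CPM on average), NCU06360, a histidinol-phosphate aminotransferase (120.4 against 456 CPM), and NCU04292, a branched-chain aminotransferase (106 against 380 CPM). NCU05805, a serine hydroxymethyltransferase that links serine to one-carbon metabolism, had 29.4, 30.9 and 27.4 CPM, against 157, 161 and 152 CPM (log2 fold change -2.42). Permease genes moved both ways. The amino acid permease gene NCU07129 had 448, 396 and 402 CPM in libraries labelled Δpac-3, against 2.26, 3.40 and 3.03 CPM in those labelled Δmus-52 (log2 fold change 7.19 ± 0.16 SE). The methionine permease NCU04942 averaged 45.4 CPM under the label Δpac-3 against 167 CPM under the label Δmus-52, the neutral amino acid permease NCU08880 averaged 9.60 against 36.2 CPM, and the sulfate permease cys-14 averaged 22.3 against 87.2 CPM. Falls were also seen for NCU02361 and NCU05518. NCU02361, a formamidase, had 124, 94.9 and 98.0 CPM, against 1017, 1026 and 1177 CPM, and NCU05518, a peroxisomal copper amine oxidase (overlapping), averaged 45.0 CPM against 319 CPM.

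Vitamin and nucleotide synthesis leaned downward. Of 17 genes of vitamin-requiring mutants, 1 rose and 10 fell, with a median of -0.40, and under scaling to total counts 5 rose and 8 fell. The fall was most marked around thiamine. NCU06110, a thiazole biosynthetic enzyme, had 1414, 1269 and 1248 CPM in libraries labelled Δpac-3, against 8626, 7714 and 8109 CPM in those labelled Δmus-52 (log2 fold change -2.64 ± 0.12 SE, overlapping). The gene nmt-1, whose product makes the pyrimidine part of thiamine, had 641, 415 and 441 CPM, against 5287, 4407 and 4445 CPM (-3.24 ± 0.18), and thi-4 fell by 1.37. The pyridoxine genes pdx-3 and pdx-2 fell by 1.05 and 0.84, nic-4 by 0.91 (overlapping) and bio-1 by 0.86. Of 9 purine and pyrimidine genes, 6 fell and 1 rose, with a median of -0.43. The purine genes ad-3A (overlapping), gua-3 and ad-8 (overlapping) fell by 1.22, 1.10 and 0.92.

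Respiratory genes split between the 2 routes of electron transfer. Of 29 subunit genes of complex I, the proton-pumping NADH dehydrogenase, 15 rose and 1 (nuo40) fell, with a median of 0.35. They took 0.204, 0.174 and 0.176% of all counts under the label Δpac-3, against 0.142, 0.128 and 0.128% under the label Δmus-52. The nuo29.9 subunit gene had 115, 77.2 and 76.4 CPM, against 55.9, 46.8 and 48.1 CPM (log2 fold change 0.83), and nuo21 rose by 0.75. Replicate 1 labelled Δpac-3 was the highest library for nuo29.9, nuo24 and nuo21. Without it 11 members rose and 1 fell, and the median was 0.17. Of 8 genes for the non-pumping bypass and its regulators, 5 fell and 1 rose, with a median of -0.47. The alternative oxidase gene aod-1 had 95.8, 109 and 107 CPM in libraries labelled Δpac-3, against 674, 736 and 724 CPM in those labelled Δmus-52 (-2.77 ± 0.10, edgeR adjusted p = 4.18e-08). The second oxidase gene aod-3 averaged 35.5 against 88.9 CPM and the external NADH dehydrogenase gene nde-1 (overlapping) 35.6 against 75.8 CPM. The transcription factor genes for aod-1, aod-2 and aod-5, fell by 0.49 and 0.46, and neither passed the test under scaling to total counts.

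Carbon metabolism showed single large changes over small shifts. Isocitrate lyase, acu-3, the entry enzyme of the glyoxylate cycle, had 66.6, 85.1 and 74.6 CPM in libraries labelled Δpac-3, against 609, 466 and 425 CPM in those labelled Δmus-52 (log2 fold change -2.73 ± 0.15 SE). Malate synthase, acu-9, which completes the bypass, had 77.7, 115 and 110 CPM, against 293, 257 and 251 CPM (-1.41). The gene acu-15, for an activator of acetate utilization, moved the opposite way, averaging 141 CPM against 86.7 CPM. The other 3 of the 6 acetate genes did not pass the test. NCU06123, a phosphoketolase (overlapping), averaged 21.0 CPM against 2.36 CPM. Of 8 glycolytic genes 6 fell and 1 rose with a median of -0.41, but only 3 fell without replicate 3 labelled Δpac-3, and 3 fell under scaling to total counts. Of 17 citrate cycle genes 8 fell and 3 rose, and under total counts 3 fell and 3 rose. The exception in size was tca-2, with 48.7, 43.0 and 41.1 CPM, against 17.1, 15.6 and 15 CPM (1.48).

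Mitochondrial import and protein folding genes had medians below 0 under TMM scaling. Of 23 import genes 10 fell and 3 rose, with a median of -0.22, and under scaling to total counts 4 fell and 6 rose. Without replicate 2 labelled Δmus-52 only 1 rose. The channel and receptor genes of the inner membrane translocase, tim23 and tim50, fell by 0.63 and 0.65, and the outer membrane insertase gene tob55 (overlapping) by 0.73, while tim8 (overlapping) rose by 0.54. Of 10 chaperone genes 6 fell and none rose, with a median of -0.42, and under total counts 4 fell and 2 rose. The mitochondrial chaperonin gene hsp60 averaged 520.5 against 803 CPM, hsp70-5 averaged 772 against 1404 CPM and hsp88 averaged 357 against 584 CPM.

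**Figure D4:**
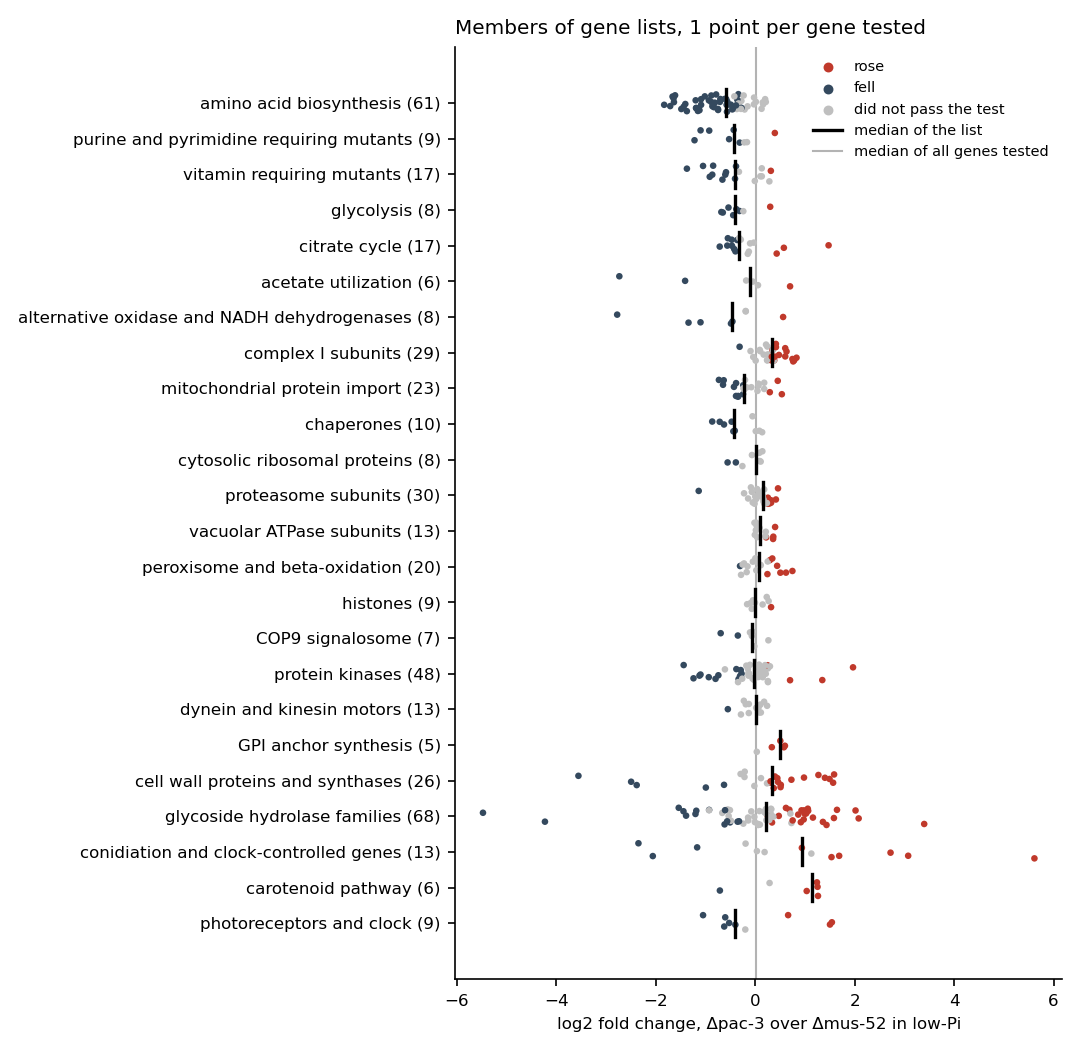
Log2 fold change of libraries labelled Δpac-3 over those labelled Δmus-52 in low-Pi for each tested member of 24 gene lists (1 point per gene, the number tested in brackets), red where the gene rose, blue where it fell and grey where it did not pass the test, with the list's median as a black bar and the median of all genes as a grey line. Amino acid biosynthesis has the most falls (43), complex I subunits 15 rises, and the cell wall, glycoside hydrolase and conidiation lists spread to both sides.

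Cell wall genes rose more often than they fell, while the largest single changes were falls. Of 26 genes for wall proteins and wall synthases, 15 rose and 5 fell, with a median of 0.34. Among the GEL β-1,3-glucanosyltransferases, which remodel wall glucan, gel-4 had 45.6, 56.7 and 51.9 CPM in libraries labelled Δpac-3, against 619, 592 and 595 CPM in those labelled Δmus-52 (log2 fold change -3.55 ± 0.11 SE, edgeR adjusted p = 1.56e-08). Its paralogue gel-3 had 1414, 1619 and 1414 CPM, against 455, 527 and 518 CPM (1.57 ± 0.11). The gel transcripts thus moved apart within one enzyme family, and the weakly expressed gel-1 rose by 0.98. Non-anchored wall protein genes split too. The gene ncw-6 had 4.49, 5.46 and 5.20 CPM, against 34.1, 23.9 and 26.1 CPM, and ncw-3 averaged 18.9 against 98.8 CPM, while ncw-1 (overlapping) rose by 1.5 at 2.38 to 2.95 CPM under the label Δpac-3. The anchored wall protein gene acw-12 (overlapping) averaged 91.3 against 30.5 CPM.

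GPI anchor synthesis, which makes the lipid anchor of many wall proteins, moved by less and in one direction. Of 5 GPI anchor synthesis genes tested, 4 rose and none fell, with a median of 0.51. They included gpip-2, with 76.3, 75.1 and 73.9 CPM in libraries labelled Δpac-3, against 49.7, 48.7 and 50.3 CPM in those labelled Δmus-52. The 13 dynein and kinesin motor genes had no rise and 1 fall (3 falls without replicate 1 labelled Δpac-3).

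Glycoside hydrolase genes spread widely. Of 79 genes with a family symbol, 68 passed the filter on low counts, 24 of them rose and 14 fell, with a median of 0.22. Of the 68 genes, 5 were modulated upward and 3 downward, which is near the 5.28% and 4.32% of all genes tested. The lytic polysaccharide monooxygenase gene gh61-5, which acts on cellulose, had 6.81, 9.07 and 8.49 CPM in libraries labelled Δpac-3, against 125, 169 and 156 CPM in those labelled Δmus-52 (log2 fold change -4.23 ± 0.15 SE). In the opposite direction, gh5-1 had 21.5, 23.0 and 20.6 CPM, against 2.83, 1.58 and 1.49 CPM (3.40), the β-glucosidase family gene gh1-1 averaged 52.9 against 13.1 CPM, and the polygalacturonase family gene gh28-1 (overlapping) averaged 5.80 against 1.39 CPM. Both known activators of these enzymes that were examined were lower. The cellulase regulator gene clr-2 had 2.77, 5.32 and 5.03 CPM, against 18.6, 21.9 and 20.8 CPM (-2.27 ± 0.22), and the xylanase regulator gene xlr-1 averaged 12.7 against 29.4 CPM. Outside the symbols, NCU05105, a glucan endo-1,3-beta-glucosidase, averaged 67.4 against 7.11 CPM and NCU08516, an aldose 1-epimerase (overlapping), 26.8 against 1.54 CPM.

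Genes of conidiation and of the clock output were among the most dispersed. Of 13 tested of 14 listed, 6 rose and 3 fell, with a median of 0.94, and without replicate 1 labelled Δpac-3 5 fell. Beside eas, con-8 rose by 2.72, ccg-13 by 3.08 and ccg-9, a trehalose synthase gene, by 1.69. Falls were of ccg-1, with 24.3, 39.7 and 45.8 CPM in libraries labelled Δpac-3, against 187, 163 and 204 CPM in those labelled Δmus-52 (log2 fold change -2.35), of con-13 and of ccg-14. The con-6 and con-10 genes, which are strongly expressed in developing conidia, were not separated by label. For con-10 the values were 8.24, 40.4 and 39.97 CPM, against 16.7, 6.41 and 6.22 CPM. Replicate 1 was the low library under the label Δpac-3 and the high one under the label Δmus-52, and the call for con-10 (edgeR adjusted p = 0.0404) was lost in 7 of the alternative analyses, at 0.0828 to 0.143. For con-6 the adjusted p was 0.144 with all libraries, 0.0389 without replicate 1 labelled Δpac-3 and 0.000511 without replicate 1 labelled Δmus-52. The developmental regulator genes fl (fluffy) and ada-6 rose, with 50.5, 26.9 and 23.6 CPM, against 12.8, 13.8 and 14.3 CPM for fl, and 42.8 against 10.7 CPM on average for ada-6. The gene ecd-2 rose by 3.71. The part that conidia of different age and light exposure play in these values was not tested.

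In a carotenoid list added after the first design, more genes rose than fell, and light receptors divided. The conidial cultures of the 2 strains differed in their time in ambient light, and its part in these values was not tested. Of 6 genes in the carotenoid list, which was drawn by symbol, 4 rose and 1 fell, with a median of 1.14. The gene cao-1 was 1 of the 4 rises, and its place in the pathway was not checked. The late gene ylo-1, for an aldehyde dehydrogenase that forms neurosporaxanthin, had 313, 194 and 198 CPM in libraries labelled Δpac-3, against 97.0, 93.4 and 108 CPM in those labelled Δmus-52 (log2 fold change 1.24), and cao-2, the torulene oxygenase gene that precedes it, rose by 1.04. The phytoene synthase gene al-2 had 241, 139 and 140 CPM, against 114, 44.9 and 57.2 CPM, so its groups were separated by a narrow margin. The prenyl precursor gene al-3 (overlapping) fell by 0.71. The desaturase gene al-1 had 318, 270 and 288 CPM, against 349, 146 and 221 CPM, and did not pass the test. Of 9 photoreceptor and clock genes, 3 rose and 5 fell, and under total counts 3 rose and 3 fell. The phytochrome genes moved apart, phy-2 by 1.54 and phy-1 by -1.05, and the opsin gene nop-1 rose by 1.5, while the blue-light receptor genes vvd and wc-1 fell by 0.62 and 0.60. The light-induced list of 8, which was planned at the start and also holds al-1, al-2 and al-3, had 2 rises and 4 falls. Its median was -0.05, and 4 rose without replicate 1 labelled Δmus-52. In this list bli-4 rose by 2.30 and bli-3 (overlapping) fell by 1.63. The pheromone gene mfa-1 had 4008, 5166 and 5893 CPM, against 2689, 1575 and 855 CPM (1.56, edgeR adjusted p = 0.00333). Its adjusted p was 0.120 when all 12 libraries shared 1 fit.

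Housekeeping complexes changed little. Of 30 proteasome genes 8 rose and 1 fell, with a median of 0.15, and leaving out replicate 1 or 2 labelled Δmus-52 or replicate 3 labelled Δpac-3 left 4, 2 or 3 rises. The gene that fell was rpn-4, whose namesake in Saccharomyces cerevisiae is a transcription factor for proteasome genes. It had 54.4, 92.0 and 90.2 CPM in libraries labelled Δpac-3, against 171, 183 and 163 CPM in those labelled Δmus-52. Of 13 vacuolar ATPase genes 4 rose and none fell, of 20 peroxin and β-oxidation genes 7 rose and 1 fell, and of 9 histone genes 1 rose and none fell. Of 8 cytosolic ribosomal protein genes with a symbol 2 fell, and of 7 COP9 signalosome genes 2 fell. In the proteasome, vacuolar ATPase, peroxin and histone lists the share that fell was below the 25.9% of all genes. Without replicate 3 labelled Δpac-3, 4 peroxin-list genes rose, and without replicate 1 labelled Δpac-3, 4 fell. Under scaling to total counts, 4 of the ribosomal protein genes rose and 1 fell.

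The balance of protein kinase genes turned round with the scaling, as did that of all genes. Of 53 listed, 48 were tested, 4 rose and 13 fell, with a median of -0.03, but under scaling to total counts 16 rose and 7 fell. Under that scaling 3086 of all 8269 genes rose and 1409 fell, so nothing particular to kinases is read from the turn. Leaving out 1 library at a time gave 1 (without replicate 2 labelled Δmus-52) to 7 rises (without replicate 1 labelled Δpac-3). The serine/threonine kinase gene stk-52 had 92.5, 98.3 and 101 CPM in libraries labelled Δpac-3, against 242, 246 and 301 CPM in those labelled Δmus-52 (log2 fold change -1.44). The genes stk-39, stk-26 and stk-34 fell by 1.24, 1.12 and 1.10. Of 5 polyketide synthase genes tested, 1 rose and 2 fell, with a median of -0.33, and pks-1 (overlapping) fell by 0.57. The polyketide synthase gene pks-3 had 64.5, 67.3 and 63.6 CPM, against 4.74, 7.35 and 6.74 CPM (3.40 ± 0.15 SE). Among calcium pump genes, nca-2 averaged 23.5 against 76.9 CPM, nca-3 averaged 2.99 against 1.04 CPM and nca-1 (overlapping) averaged 142 against 109.5 CPM.

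Genes annotated to siderophores, which chelate iron, and to non-ribosomal synthesis were among the falls. NCU06062, of aerobactin siderophore biosynthesis, had 8.08, 9.11 and 7.49 CPM in libraries labelled Δpac-3, against 124, 106 and 73.6 CPM in those labelled Δmus-52 (log2 fold change -3.63). NCU06063, the adjacent fatty acid CoA ligase gene, averaged 3.48 against 66.1 CPM, and NCU08441, a non-ribosomal peptide synthetase, averaged 7.64 against 79.2 CPM. Sugar and acid transporters included rises, NCU04963, a high-affinity glucose transporter, with 214, 334 and 359 CPM, against 77.8, 80.7 and 103 CPM, and NCU06305, a tartrate transporter, with 79.4 against 18.1 CPM on average. These genes were chosen after their values were seen.

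Some modulated genes stood side by side on the chromosomes. In the RefSeq order of the NC12 assembly, 6 runs of at least 4 consecutive genes were modulated the same way, 5 upward and 1 downward. On linkage group I, 6 neighbours from NCU02913 to NCU02909 (positions 8714260 to 8730201) rose by 2.26 to 4.05 on the log2 scale. They averaged 0.629 to 271 CPM per gene under the label Δpac-3, against 0.0307 to 24.1 CPM under the label Δmus-52. On linkage group II, a run of 6 from NCU09355 to NCU09777 (4219386 to 4264847) rose by 1.69 to 2.91, at 0.68 to 24.2 CPM against 0.0699 to 5.93 CPM. The next run began a short distance on, with 4 genes from NCU09775 to NCU09772 (4269308 to 4278203), and held the oligopeptide transporter NCU09773. Its genes averaged 1.49 to 58.2 CPM against 0.0 to 13.2 CPM. On linkage group VII, 4 genes ending at NCU08171, acw-12 (3612679 to 3623068), rose by 1.59 to 2.39, at 9.93 to 91.3 CPM against 1.88 to 30.5 CPM. A further rising run of 4, NCU16806 to NCU04487, lay on linkage group IV at 3195504 to 3201537, at 1.69 to 8.74 CPM against 0.254 to 2.23 CPM. The only falling run, NCU07901 to NCU07898 on linkage group IV (1405671 to 1413821), averaged 0.151 to 0.387 CPM per gene under the label Δpac-3, against 3.74 to 7.37 CPM under the label Δmus-52. Weakly expressed members had to pass the filter on low counts, often through the strain in which they were higher. Members that overlap another annotated gene, as acw-12 does, are not marked here, and their reads cannot be assigned with certainty. Most members of these runs carry no symbol.

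The comparison was set beside the same strains in high-Pi to show where the low-Pi pattern differed. Replicates varied more in high-Pi, with a common biological coefficient of variation of 0.208 against 0.121 in low-Pi. A change of a given size was therefore harder to detect in high-Pi. In high-Pi, 757 of 8284 genes were modulated (9.14%), 600 upward (7.24%) and 157 downward (1.9%). Genes modulated upward in both conditions numbered 325, which is 74.4% of those in low-Pi and 54.2% of those in high-Pi. Genes modulated downward in both numbered 122, which is 34.2% of those in low-Pi and 77.7% of those in high-Pi. This overlap needs both thresholds to be passed in both conditions. Of the genes modulated downward in low-Pi, 346 were tested in high-Pi, with a median of -1.05 there. Among these 346, 269 had the same sign in high-Pi, 188 fell past the test and 11 rose. The amino acid list behaved alike by count, with 39 falls and 1 rise in high-Pi (16.6% and 18.8% of all genes there) and a median of -0.65.

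The difference between conditions was tested as an interaction of strain and Pi over the 12 libraries, and 886 of 8465 genes (10.5%) passed, 637 (7.53%) with a lower and 249 (2.94%) with a higher strain effect in low-Pi. Among the 437 genes modulated upward in low-Pi, 24 (5.49%) passed. The median strain effect was 2.10 over the 437 genes in low-Pi, and 2.18 over the 415 of them that were tested in high-Pi. Among the 357 genes modulated downward, 162 (45.4%) passed. Since the members were picked by their low-Pi fold change, part of this excess follows from the choice. The upward genes were also weaker, at a median level of 3.30 CPM against 16.8 CPM for the downward genes. The test could detect less at such levels, so the 2 shares are not directly comparable. Without replicate 2 labelled Δmus-52 in high-Pi, 121 of the 794 modulated genes passed in all, against 186 (23.4%) with every library. Across the alternative analyses the shares were 2.06 to 11.9% of upward and 31.4 to 56.6% of downward genes.

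**Figure D5:**
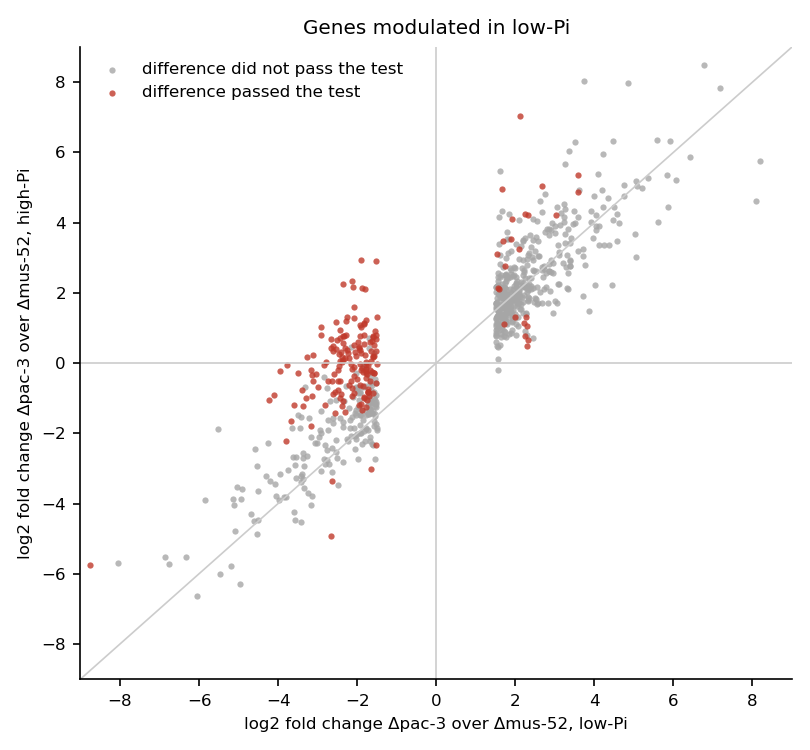
Log2 fold change of libraries labelled Δpac-3 over those labelled Δmus-52 in high-Pi (vertical) against low-Pi (horizontal) for 758 of the 794 genes modulated in low-Pi, red where the difference between conditions passed the test. Another 33 genes had no high-Pi value and 3 lay outside the axes. Upward genes follow the diagonal, while a band of downward genes lies near 0 on the vertical axis.

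The 162 downward genes with an interaction were described over the 4 groups. They were chosen for a fall in low-Pi that differed from high-Pi, which largely fixes the order of the groups, so nothing is read from it. Their mean CPM was highest in libraries labelled Δmus-52 in low-Pi for 156 of them, and lowest in libraries labelled Δpac-3 in low-Pi for 121. Their median low-over-high log2 difference was -0.40 under the label Δpac-3 and 1.36 under the label Δmus-52. In high-Pi, 158 of them were tested, and 11 rose and 38 fell, with a median of -0.06. The effect of Pi within a strain was not tested. Only 6.79% of them have a symbol.

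Single genes among them covered several functions. NCU02203, a C2H2 zinc finger gene, averaged 164 CPM (Δpac-3) and 621 CPM (Δmus-52) in low-Pi, and 217 CPM (Δpac-3) and 176 CPM (Δmus-52) in high-Pi, with an interaction of -2.22 on the log2 scale. They held 2 aminoacyl-tRNA synthetase genes that were picked after their values were seen, and the class was not counted. NCU07926, a glutaminyl-tRNA synthetase, averaged 229 and 727 CPM under those labels in low-Pi, and 264 and 251 CPM in high-Pi. NCU07082, an aspartyl-tRNA synthetase, averaged 13.5 and 83.2 CPM in low-Pi, and 37.8 and 27.0 CPM in high-Pi. Outside the 162 genes, the synthetase gene leu-5 had an interaction the other way, 0.65. The clock-controlled gene ccg-1 averaged 36.3 and 184 CPM in low-Pi, and 76.5 and 45.0 CPM in high-Pi. For the cellulose-degradation genes, gh61-5 averaged 8.05 and 149 CPM in low-Pi, and 10.5 and 21.6 CPM in high-Pi, and the cellulase regulator gene clr-2 averaged 4.34 and 20.3 CPM in low-Pi, and 6.16 and 3.57 CPM in high-Pi. In the kinase list, 5 of 50 genes tested had an interaction toward lower values in low-Pi and none toward higher, close to the 7.53% and 2.94% of all genes. The kinase gene stk-34 fell by 1.10 in low-Pi and rose by 0.52 in high-Pi. The amino acid list held 4 interactions toward lower values and 1 toward higher among its 61 genes. With DESeq2 or with the replicate block it held 9, 6 of them toward lower values, and with 1 library left out 2 (without replicate 2 labelled Δmus-52 in high-Pi) to 8 (without replicate 1 labelled Δpac-3 in high-Pi). Without replicate 3 of either label in high-Pi it held 7 (Δpac-3) and 3 (Δmus-52), and without replicate 2 of either label in low-Pi 3 each.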

How the data were processed

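Poly(A) RNA was sequenced in 12 libraries, 3 for each strain and phosphate level. The authors trimmed and checked the reads (FastQC 0.11.7), aligned them to the genome (Bowtie2 2.3.4) and deposited raw counts per gene for each library. The counting tool and its strand setting are not given in the sources used here. A pair of deposited comparison tables, holding means per strain, fold changes and p-values, was not used.

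Counts of the 6 low-Pi libraries were filtered on low values (edgeR 4.0.16, filterByExpr, minimum count 10, minimum total 15), scaled by TMM and tested with the quasi-likelihood F-test under R 4.3.3, with p-values adjusted by Benjamini-Hochberg over all genes tested. The high-Pi libraries were fitted in the same way, and the interaction in 1 fit of 12 libraries. Fold changes are labelled Δpac-3 over labelled Δmus-52. CPM values use TMM-scaled totals, and counting error is the only error that depth removes. Across genes, replicate libraries correlated at 0.991 to 0.997 (Δpac-3) and 0.994 to 0.995 (Δmus-52) in low-Pi. In high-Pi they correlated at 0.97 to 0.982 (Δpac-3) and 0.992 to 0.995 (Δmus-52). No libraries were identical. On counts simulated for the low-Pi comparison, 83.6% of genes changed by 1 on the log2 scale and 100% of those changed by 2 or 3 were recovered.

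Gene symbols and positions came from the RefSeq table of NC12. Symbols alone defined the gene lists, since product names were at hand only for genes the study had called, which departs from the design first written. Planned lists with fewer than 4 such genes are not described. The lists of the oxidase bypass, mitochondrial import, glycolysis, citrate cycle, nucleotide and vitamin genes were added after the first design. So were those of the proteasome, vacuolar ATPase, COP9 signalosome, motors, GPI anchors, glycoside hydrolase families, carotenoids, and photoreceptors and clock. The complex I and acetate lists, also added, hold the same members as planned lists. Product names of single genes are those annotated in the study's supplement. The members, lists and tests were chosen with earlier results of these data known. Named genes were the targeted and control genes, the 10 largest rises and 10 largest falls among modulated genes not named in the study's text whose libraries were separated and whose mean reached 10 CPM in 1 strain, up to 4 changed and separated members of each list at that level, the 5 genes of highest mean CPM in each strain, the 5 with the smallest interaction p among modulated genes, and conidial markers. Other genes, and list members outside this rule, were chosen after their values were seen. Promoter motifs were not analysed here. The result of 1 further list is not reported here.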

Additional observations from a re-analysis of the deposited data

Results flagged for a closer look

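For 34 of the genes named or examined, the strain effect (labelled Δpac-3 over labelled Δmus-52) differed between low-Pi and high-Pi in edgeR's interaction test over 12 libraries. Values are the low-Pi minus the high-Pi log2 fold change, so a negative value means a strain effect that lay lower in low-Pi. The genes were partly picked by their low-Pi values, and no explanation was tested.

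The genes with the smallest interaction p among modulated genes were these. NCU00250 (overlapping another gene) had -3.77, NCU04667 -2.93, NCU09365 -2.42, NCU00322 -2.40 and the zinc finger gene NCU02203 -2.22. For NCU00250 the mean was 1.66 CPM (Δpac-3) and 24.2 CPM (Δmus-52) in low-Pi, and 4.63 CPM (Δpac-3) and 4.79 CPM (Δmus-52) in high-Pi. NCU01064 had -3.04, and the flotillin domain gene NCU05899 had -2.30.

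In plant cell wall degradation, gh61-5 had -3.18 and the cellulase regulator gene clr-2 had -3.06. Fungal cell wall genes had smaller differences, -1.99 for ncw-6, -1.17 for ncw-3, -0.58 for gel-3 and -0.95 for gel-1. Among developmental and light genes, ccg-1 had -3.12, con-13 -2.35, phy-1 -1.14 and wc-1 -0.91, while al-1 had 1.49 and bli-4 had 1.25.

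Kinase genes were all on the negative side, stk-26 at -1.96, stk-52 at -1.73, stk-34 at -1.63 and stk-39 at -0.70. The rpn-4 gene had -1.58.

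In amino acid metabolism and translation, the tRNA synthetase genes NCU07082 and NCU07926 had -3.11 and -1.74, arg-3 had -0.78, lys-5 -0.77, the methionine permease NCU04942 -0.56 and the peptide transporter NCU08738 -1.17. The strain effect lay higher in low-Pi for the thiazole enzyme NCU06110 (0.70), leu-5 (0.65), which is also a tRNA synthetase gene, tim8 (0.83) and hsp80 (0.51).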

How the results depend on the processing

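Modulated genes in low-Pi numbered 794 as reported, 350 with a mean CPM of at least 10, 414 when the test was made against the fold change threshold (glmTreat), and 1397 with a threshold of 1 on the log2 scale. The corresponding high-Pi counts were 757 as reported, 300, 217 and 1328. Leaving out 1 library at a time gave 799 to 823 in low-Pi, 635 to 893 in high-Pi, and 121 to 254 interactions among the low-Pi modulated genes, where 186 were reported. The lowest of these, 121, came without replicate 2 labelled Δmus-52 in high-Pi. DESeq2 gave 884 modulated genes in low-Pi.

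With the replicate block, 782 genes were modulated in low-Pi, 727 in high-Pi, and 199 interactions passed. The numbers did not pair the samples by the criterion used, since same-numbered deviations correlated at 0.0659, 0.119 and 0.126, although each library correlated best with its own number. For con-10 the adjusted p was 0.120 with the block.

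Of the results for single genes, 2426 kept their direction and side of the threshold, 57 no longer passed, 13 newly passed and 0 reversed. Strain is confounded with conidial age and with the time of the conidial cultures at room temperature in ambient light. Gene-level counts carry no strand, and the promoter analysis first planned was not run.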
